A study of Mus musculus with 4 samples.

Results

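The genes described here are the plasminogen activators and serpins of dystrophic muscle: Plau, Plaur, Plat, Serpine2 and Serpinf1. Members were the probe sets whose only gene symbol in the platform annotation was 1 of these 5 genes, which gave 7 of the 45101 probe sets of the array. Plau, Plat and Serpinf1 had 2 probe sets each and Plaur had 1. No probe set carried the symbol Serpine2 in the annotation used here, so Serpine2 was not analysed here and the values cover 4 of the 5 genes.

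Plasminogen is a circulating zymogen that urokinase (Plau) and tissue plasminogen activator (Plat) cleave to plasmin, a broad protease that dissolves fibrin and degrades matrix. The urokinase receptor (Plaur) holds urokinase at the cell surface, where it also acts with integrins in the migration of leukocytes and muscle precursor cells. The serpin protease nexin-1 (Serpine2) blocks the activators and thrombin. Pigment epithelium-derived factor (PEDF, Serpinf1) belongs to the serpin family by structure but inhibits no protease, and is known as an anti-angiogenic, collagen-binding secreted protein. In injured muscle, urokinase made by infiltrating cells and myoblasts is known to support clearance of fibrin and regeneration.

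Expression was measured on 4 arrays of tibialis anterior, a muscle of the front of the lower leg, 1 array for each group. All 4 groups were of strain C57BL/6J and carried the mdx mutation of dystrophin. They were mdx at 1 month, mdx at 3 months, mdx/MMP-2-/- at 1 month and mdx/MMP-2-/- at 3 months; the double mutant also lacks the gelatinase MMP-2 and is called mdx/MMP-2 null or the double mutant here. No wild-type muscle was measured, and the sources used here do not give the sex of the mice or how many animals gave the RNA of an array. With 1 array a group there is no replicate check, and "higher" and "lower" describe single arrays.

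The labels held for the deleted gene: scaled signals of Mmp2 were 985 and 805 in mdx at 1 and 3 months, and 24.7 and 40.9 in the double mutant. All 14 muscle fibre markers, such as Ckm and Acta1, were above the floor, the signal of 17.4 below which values were set equal. Deposited signals were not on a common scale, with 2% trimmed means of 90.4 to 122, so arrays were quantile normalized and "scaled signal" refers to the result. The ratio of 3' to 5' control signals of Actb, which reflects RNA quality, was 1.05 and 1.19 at 1 month and 2.09 and 2.36 at 3 months. For Gapdh the same ratio lay between 0.85 and 0.936 in all 4 arrays. Bulk RNA does not tell fewer cells of a type apart from less RNA per cell.

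Promoter windows of RefSeq (GRCm38.p6), reaching from 250 bases before to 50 bases from the gene start, were held for 3 of the 5 genes. Those of Plaur, the gene with the largest difference between genotypes, and of Serpinf1, the gene with the largest difference between ages in mdx, are shown to set the sequences of these genes side by side. Capitals mark matches to TGANTCA, the letters of the AP-1 site, and to GGGCGG or its complement CCGCCC, the letters of the Sp1 site.
Plaur, chr7:24462233-24462532, plus strand: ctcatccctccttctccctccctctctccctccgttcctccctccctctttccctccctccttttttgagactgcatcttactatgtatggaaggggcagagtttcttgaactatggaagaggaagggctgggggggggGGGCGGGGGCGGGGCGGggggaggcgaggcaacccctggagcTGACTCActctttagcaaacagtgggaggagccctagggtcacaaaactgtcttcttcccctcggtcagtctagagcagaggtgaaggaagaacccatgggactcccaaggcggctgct
Serpinf1, chr11:75422574-75422873, minus strand: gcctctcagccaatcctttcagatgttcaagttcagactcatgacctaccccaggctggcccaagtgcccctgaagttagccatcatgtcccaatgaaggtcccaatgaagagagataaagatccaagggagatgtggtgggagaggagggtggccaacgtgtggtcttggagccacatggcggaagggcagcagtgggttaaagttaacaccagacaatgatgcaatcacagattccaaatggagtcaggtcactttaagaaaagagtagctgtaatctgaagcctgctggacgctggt
The Plaur window held 1 AP-1 match at bases 182 to 188, counted from 1 at the 5′ end, which starts 69 bases before the gene start. It also held 3 Sp1 matches between bases 140 and 156, the last sharing 1 base with the one before it. The Serpinf1 window held no match to either motif. Of all 32851 windows, 7.81% held the AP-1 letters and 35.7% the Sp1 letters on either strand. GC content was 59.3% in the Plaur window and 50.7% in the Serpinf1 window. Matches to other motifs were not capitalised: GAGGAA or TTCCTC, the core of PU.1 sites, occurred 2 times in the Plaur window and in no place of the Serpinf1 window, against 28.3% of all windows holding it. Neither window held TATAAA or TTTATA. These are matches of letters in a window, and no binding was measured.

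Plaur stood apart in 1 array. Its scaled signals (probe set 1452521_a_at) were 34.6 in mdx at 1 month, 38.5 in mdx at 3 months, 37.7 in the double mutant at 1 month and 74.7 in the double mutant at 3 months. The signals before scaling were 32.2, 32.5, 39.8 and 88.1 in the same order. The double mutant array at 3 months lay above the others, which were close together. Plaur was dim, with 23%, 25.6%, 25.1% and 40.8% of tested genes at or below it in the same order. Its highest scaled signal lay under 85.4, the 75th percentile of signals, and it had no second probe set to compare. Plaur at 3 months was 1.94-fold higher in the double mutant than in mdx, a log2 difference of 0.96. Of 12801 genes tested, 181 (1.41%) were at least as far above mdx in that comparison. At 1 month the log2 difference between genotypes was 0.12, a 1.09-fold difference, and 27.6% of genes were at least as far higher. The difference between genotypes was 0.83 larger on the log2 scale at 3 months than at 1 month, which could not be tested with 1 array a group.

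Seen by age, Plaur was 1.98-fold higher at 3 months than at 1 month in the double mutant (log2 difference 0.99) and 1.11-fold higher in mdx (0.15). In the mdx/MMP-2 null comparison 198 genes (1.55%) were at least as far higher at 3 months, and in the mdx comparison 31.8% were. The comparisons of 3-month arrays and of mdx/MMP-2 null arrays share the array in which Plaur was high, so they are not separate evidence. Both values lay just short of 2-fold, and other scalings of the arrays moved them across it. Under 4 other treatments of scaling the log2 difference between genotypes at 3 months was 0.98 to 1.44, the highest with no scaling, where the median of all genes itself stood at 0.41. The difference between ages in the double mutant was 0.82 to 1.14 on the same scale.

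**Figure D1:**
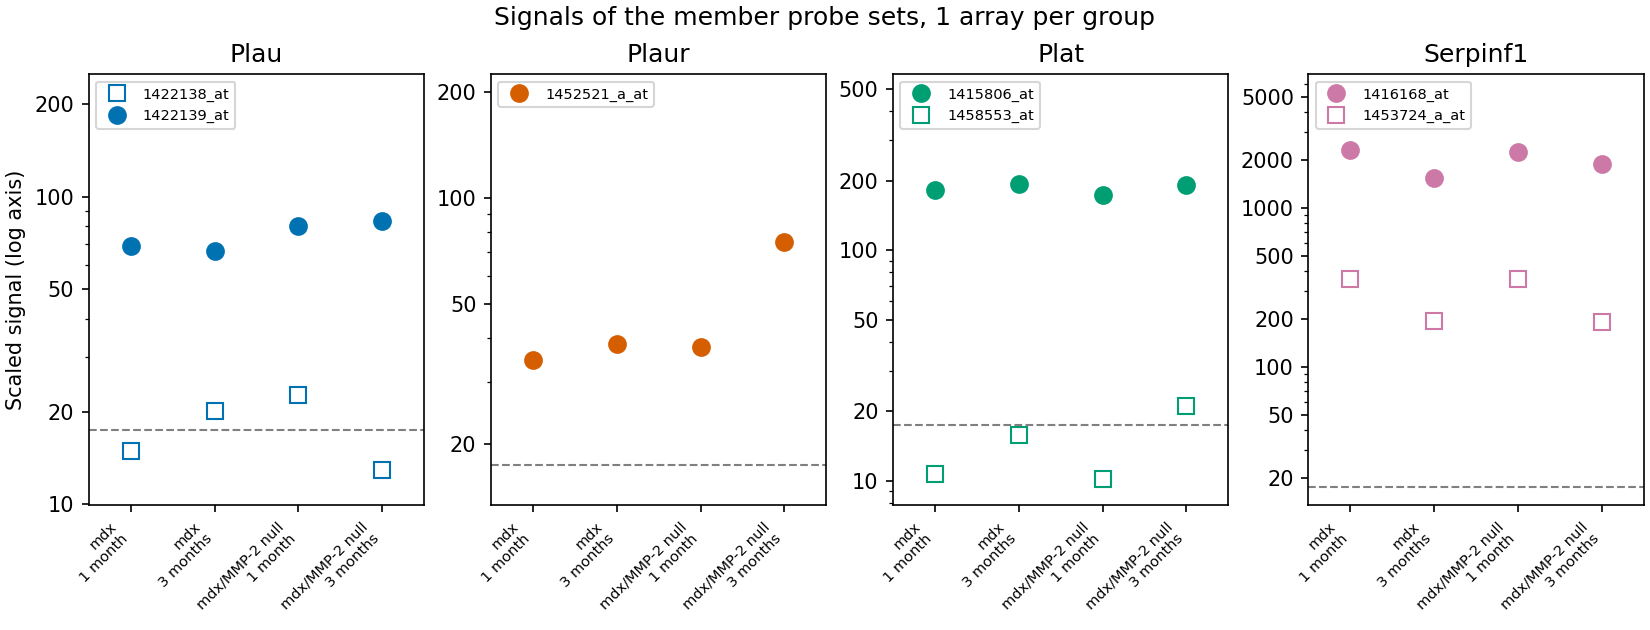
Scaled signal on a log axis for every member probe set in each of the 4 arrays, 1 panel per gene, with filled circles for the probe set that represents the gene, open squares for the other probe set and a dashed line at the floor of 17.4. Plaur is at 34.6 to 38.5 in 3 arrays and at 74.7 in mdx/MMP-2 null at 3 months, and both Serpinf1 probe sets are lower at 3 months than at 1 month in either genotype.

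Urokinase itself differed little. Plau (1422139_at) had scaled signals of 69.0 in mdx at 1 month, 66.7 in mdx at 3 months, 80.3 in the double mutant at 1 month and 83.3 in the double mutant at 3 months. Both double mutant arrays lay above both mdx arrays, by 1.16-fold at 1 month and 1.25-fold at 3 months. Differences of that size or larger in the same direction were common, at 18.2% and 16.1% of genes. Between ages Plau differed by 1.03-fold in mdx and 1.04-fold in the double mutant, and the sign of the latter turned with 2% trimmed mean scaling (log2 -0.06).

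The other Plau probe set (1422138_at) was dim, above the floor in 2 of 4 arrays. Its signals were 14.8 and 20.05 in mdx at 1 and 3 months, and 22.7 and 12.9 in the double mutant. It was at least 1.3-fold higher in the double mutant at 1 month and at least 1.15-fold lower at 3 months. The probe sets of Plau therefore lay on the same side at 1 month and on opposite sides at 3 months, and the mean of both gave a log2 difference of 0.06 at 3 months.

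Tissue plasminogen activator, which endothelium and nerve are known to release, was at nearly the same level in all arrays. Plat (1415806_at) had scaled signals of 183 in mdx at 1 month, 193 in mdx at 3 months, 172 in the double mutant at 1 month and 192 in the double mutant at 3 months, so the highest was 1.12 times the lowest. At 1 month it was 1.06-fold lower and at 3 months 1.01-fold lower in the double mutant. With no scaling the log2 differences were 0.03 and 0.46, where the medians of all genes stood at 0.09 and 0.41. Its second probe set (1458553_at) exceeded the floor in 1 array, mdx/MMP-2 null at 3 months, at 21.2 against 15.8 in mdx of that age, and was at 10.7 and 10.2 at 1 month.

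Endothelial markers were lower with age while Plat was not. At 3 months 12 of 14 endothelial markers were lower than at 1 month in mdx and 13 of 14 in the double mutant, with medians of -0.45 and -0.64 on the log2 scale against 0.0 for all genes. Their summed scaled signal was 3218 and 3517 at 1 month and 2514 and 2317 at 3 months, in mdx and the double mutant. Plat was 1.06-fold and 1.11-fold higher at 3 months in the same comparisons. The part of endothelial content in the Plat values was not tested, nor was that of the Actb 3' to 5' ratio in these age differences.

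PEDF was the member that differed most by age in mdx. Serpinf1 (1416168_at) had scaled signals of 2304 in mdx at 1 month, 1539 in mdx at 3 months, 2229 in the double mutant at 1 month and 1885 in the double mutant at 3 months. Both 1-month arrays lay above both 3-month arrays. Its log2 difference at 3 months was -0.58 in mdx, where 7.38% of genes were at least as far lower, and -0.24 (1.18-fold lower) in the double mutant, where 23.1% were. The second probe set of Serpinf1 (1453724_a_at) gave 355 and 194 in mdx at 1 and 3 months and 356 and 190 in the double mutant. That probe set was 1.83-fold lower at 3 months in mdx and 1.87-fold lower in the double mutant.

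The probe sets of Serpinf1 thus lay on the same side with age in each genotype but gave different sizes in the double mutant. For the brighter probe set the log2 difference of -0.24 in the double mutant turned to 0.07 with median scaling, which put the median of all genes at 0.19, and to 0.13 with no scaling, which put it at 0.26. For the dimmer probe set the same difference stayed between -0.89 and -0.56 under the 4 other treatments of scaling. Between genotypes at 3 months the brighter probe set was 1.22-fold higher in the double mutant and the dimmer 1.02-fold lower. The latter turned to a log2 difference of 0.44 with no scaling, which put the median of all genes at 0.41. At 1 month the genotypes differed by 1.03-fold or less in both. The ratio of Actb 3' to 5' signal stood at 2.09 and 2.36 in the 3-month arrays, above both 1-month arrays, and its part in the age differences was not tested.

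Fibroblast markers, such as the collagens and Dcn, were lower at 3 months in 10 of 13 cases in mdx (median log2 difference -0.23). In the double mutant 9 of 13 were lower (-0.16). That value turned to 0.09 with median scaling, where all genes stood at 0.19. With no scaling it turned to 0.15, where all genes stood at 0.26. The summed scaled signal of the fibroblast markers was 49931 and 48356 at 1 month and 45092 and 47844 at 3 months in mdx and the double mutant. The brighter Serpinf1 probe set ran in the same order over the arrays and the dimmer did not. The summed signal of tendon and cartilage markers, 5406, 4297, 5023 and 4553 in mdx at 1 and 3 months and the double mutant at 1 and 3 months, ran in that order too. Col1a1, the main chain of type I collagen, which PEDF binds, was 2.37-fold lower at 3 months in mdx (1823 against 4327) and 1.51-fold lower in the double mutant (2439 against 3681). The part of fibroblast or tendon content in the Serpinf1 values was not tested.

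Read over all 4 genes, none was at or past 2-fold in any comparison. The shares of all tested genes past 2-fold were 1.15% between genotypes at 1 month, 1.6% at 3 months, 2.52% between ages in mdx and 2.69% in the double mutant, so a count of 0 among 4 genes says little. At 1.5-fold, Plaur was past the threshold between genotypes at 3 months, where 9.44% of genes were, and between ages in the double mutant, where 14.1% were. No member was past it at 1 month (7.08% of genes) or between ages in mdx (13.2%), where Serpinf1 lay just short of it.

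**Figure D2:**
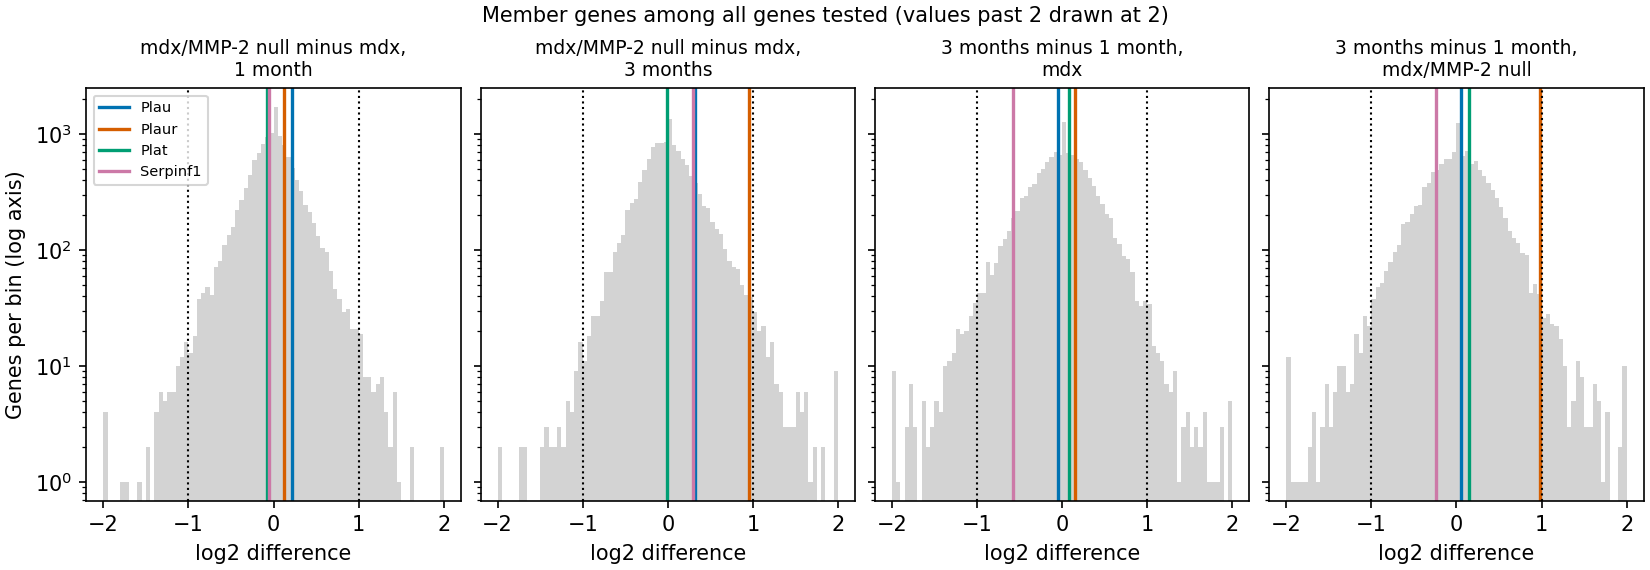
Histograms of the log2 differences of 12801 genes in the 4 comparisons, with genes per bin on a log axis, coloured lines for the 4 member genes and dotted lines at 2-fold. The Plaur line lies next to the 2-fold line in the comparisons that hold the mdx/MMP-2 null array at 3 months, the Serpinf1 line lies left of 0 in both comparisons of age, and the other member lines lie within the bulk of genes.

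An additive model of genotype and age, fitted with limma to all 4 arrays, uses each age as a repeat of the genotype difference and each genotype as a repeat of the age difference. It left 1 residual degree of freedom per gene. In that limma fit Plaur had a genotype coefficient of 0.54 on the log2 scale (SE 0.25, adjusted p = 0.982) and an age coefficient of 0.57 (SE 0.25, adjusted p = 0.402). The genotype coefficient of Plau was 0.27 (SE 0.15, limma adjusted p = 0.982), with both ages on the same side. Serpinf1 had an age coefficient of -0.41 (SE 0.17, limma adjusted p = 0.386) and a genotype coefficient of 0.12 (SE 0.17). For Plat the coefficients were -0.05 for genotype and 0.11 for age (SE 0.15 each). No member passed the adjusted threshold of 0.05, nor did any gene: the limma fit called 0% of genes for genotype and 0% for age, with 560 and 1756 genes at an unadjusted p under 0.05. A genotype difference that is present at 1 age only, as in the Plaur values, enters the residual of this model.

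The pattern of each member over the 4 arrays was set against 7602 named genes at or above the 75th percentile of signal (85.4) in at least 1 array. Likeness was the Euclidean distance between the 4 log2 signals, each gene centred on its own mean. Nearest to Plaur were Tnnc1, slow troponin C (distance 0.05), the zinc transporter Slc39a14 (0.09) and the membrane glycoprotein Emb (0.1). Only 9 of the 7602 genes lay within 0.25 of Plaur. Mfap5, a microfibril protein of fibroblasts, lay nearest to Serpinf1 (0.04), followed by Pclaf (0.04) and Septin9 (0.05), with 495 genes within 0.25. Vps29, Ap2a2 and Neurl1a were nearest to Plau, where 919 genes lay within 0.25. Cox7a2, Dock4 and Hibch were nearest to Plat, where 2411 did. With 4 arrays such nearness is a description of these signals.

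The substrate and the circulating inhibitor of the system gave little signal. Plg, the plasminogen gene, which the liver expresses, was below the floor in all 4 arrays (1.14 to 7.47). Serpinf2, the plasmin inhibitor alpha-2-antiplasmin, also a product of liver, exceeded the floor in 1 array (18.3 in mdx at 3 months). The protein in muscle, which can come from blood, was not measured. The genes of fibrinogen, Fga, Fgb and Fgg, were at the floor in all arrays.

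Genes that bind plasminogen or work with the urokinase receptor lay on both sides at 3 months, with the differences past 1.5-fold all upward in the double mutant. Of 21 partners of the system above the floor, 13 were higher and 8 lower, with a median log2 difference of 0.18 against 0.0 for all genes, and 6 were at or past 1.5-fold higher against 0 lower, where 6.12% of all genes were higher and 3.33% lower. Anxa2 and S100a10, which together form a plasminogen receptor, were 1.61-fold (1575 against 979) and 1.56-fold higher (1529 against 978). Itgb2, the leukocyte integrin chain that pairs with Itgam and binds the urokinase receptor, was 1.70-fold higher (234 against 138). Mrc2, a collagen receptor that associates with the urokinase receptor, was 1.59-fold higher (177 against 111). On the lower side were Itga3 (log2 difference -0.47), Vldlr (-0.46), Itgb1 (-0.19) and Sorl1 (-0.18). The remaining genes past 1.5-fold were Serpinb2, an inhibitor of urokinase known from macrophages, with a log2 difference of at least 0.80 (30.3 against 7.35), and Fpr2, a formyl peptide receptor, at least 2.37-fold higher (41.4 against 11.5). These 2 dim genes were named after their values were seen. Fpr2 was the only partner past 2-fold, where 1.18% of all genes were past it upward.

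At 1 month the partners lay on both sides, with 9 higher and 10 lower and a median of 0.0. Past 1.5-fold was 1 gene, where 7.08% of all genes were past it in either direction. That gene was Itga3, an integrin chain (1.51-fold lower, 56.3 against 85.2; named after its values were seen). Itgb2 was 1.42-fold lower (158 against 225), the opposite side from 3 months. Igf2r, a scavenging receptor known to bind the urokinase receptor and plasminogen, was 1.36-fold higher (574 against 423), and Sorl1, which takes up activator-inhibitor complexes, was higher too (489 against 375). Anxa2 and S100a10 differed by -0.03 and -0.08 on the log2 scale. Lrp1, the main uptake receptor for activator-inhibitor complexes, had signals of 475 and 512 at 1 month and of 496 and 703 at 3 months, in mdx and the double mutant.

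With age, the partners differed by genotype of the array. In mdx, 13 of 21 were lower and 7 higher at 3 months (median -0.12), and Mrc2 was 2.05-fold lower (111 against 228). Vldlr, a further uptake receptor of the system, was 1.73-fold higher (3035 against 1754). In mdx/MMP-2 null, 12 were higher and 8 lower (median 0.24). Plgrkt, a membrane receptor for plasminogen, was 1.69-fold lower (128 against 216) and S100a10 1.49-fold higher (1529 against 1027). Fpr2 was at least 2.37-fold higher there and again the only partner past 2-fold upward, where 1.47% of all genes were.

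Other serpins were few above the floor, 9 of 18 with a probe set. At 3 months 7 of 9 lay above mdx in the double mutant (median log2 difference 0.25). Serpina3n, an acute-phase inhibitor of granzyme B and elastase, was 2.42-fold higher (146 against 60.4) and Serpinb1a, an inhibitor of neutrophil proteases, 2.22-fold higher (708 against 319), where 1.18% of all genes were past 2-fold higher. At 1 month Serpina3n lay on the other side (23.3 against 56.5) and was the only serpin past 2-fold, where 0.578% of all genes were past it downward. Serpinh1, a chaperone of collagen, was 1.24-fold higher in the double mutant at 3 months (1665 against 1344), and Serping1, the inhibitor of complement C1, had signals of 1694 to 2002 in the 4 arrays.

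Substrates and linked proteases were mixed. The list of 15 holds Plxdc2, a PEDF receptor placed there by mistake, so counts are given without it, a choice made after seeing the data. At 3 months 8 of 14 were higher and 5 lower in the double mutant (median log2 difference 0.20). Past 1.5-fold, 3 were higher and 2 lower, where 6.12% of all genes were higher and 3.33% lower. Mmp3, a metalloproteinase whose proenzyme plasmin can activate, was 2.88-fold higher (356 against 124) and the only gene of that list past 2-fold, where 1.18% of all genes were past it upward. Pdgfc, a growth factor that tissue plasminogen activator cleaves, was 1.65-fold higher (142 against 86.0). Tgfb1, whose latent form plasmin can release, was 1.55-fold higher at 3 months (87.4 against 56.4) and 1.72-fold lower at 1 month (52.5 against 90.5). Fn1, fibronectin, was 1.38-fold higher at 3 months (1663 against 1203). The genes past 1.5-fold lower were Pdgfd, a related growth factor (51.1 against 77.0), and Bdnf, a neurotrophin whose precursor plasmin cleaves (15.7, under the floor, against 28.5). At 1 month 6 were higher and 8 lower (median -0.06), and Mmp13, a collagenase known from growth cartilage, was 3.00-fold lower (54.1 against 163). Between ages Mmp13 was 7.32-fold lower at 3 months in mdx, and Mmp3 3.81-fold higher in the double mutant. Of the tendon and cartilage markers, Col2a1, Acan, Sox9, Ibsp, Chad, Col11a1 and Mkx were highest in the same array as Mmp13, mdx at 1 month. Tnmd was level there with the double mutant of that age (867 against 868). Scx, Fmod, Thbs4 and Comp were each higher in another array. Between genotypes at 1 month 9 of 12 were lower in the double mutant (median -0.54). Of these, 4 were past 2-fold, Col2a1, Acan, Sox9 and Ibsp, where 0.578% of all genes were past it downward. Acan and Ibsp were under the floor in that double mutant array (7.93 and 15.8), so their folds are lower bounds. Between ages in mdx 10 of 12 were lower at 3 months (median -0.70). Of these, 5 were past 2-fold, Tnmd, Col2a1, Acan, Ibsp and Col11a1, where 198 of 12801 genes were past it downward. Col2a1, the collagen of cartilage, had signals of 174 and 2.69 in mdx at 1 and 3 months, and 29.8 and 9.02 in the double mutant. None of the 12 was at the floor in all arrays. The part of tendon or cartilage in these values was not tested.

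Coagulation genes, which include receptors and cofactors of thrombin, the protease that Serpine2 inhibits, had 12 of 19 higher and 6 lower in the double mutant at 3 months (median 0.15), with 3 past 1.5-fold higher, against 6.12% of all genes, and 0 past 2-fold, against 1.18%. These were Thbd, thrombomodulin (1.95-fold, 765 against 392), F2r, the thrombin receptor (1.75-fold, 853 against 487), and F13a1, the subunit of factor XIII found in macrophages (1.73-fold, 796 against 461). At 1 month 9 were higher and 7 lower, with a median of 0.0 and none past 1.5-fold, against 7.08% of all genes in either direction. Receptors and partners of PEDF had 5 of 7 higher at 3 months (median 0.22) and 4 of 7 at 1 month (0.16). Pnpla2, a lipase that binds PEDF, had signals of 677 to 773 in the 4 arrays, and Plxdc2, a PEDF receptor, of 245 to 337.

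Markers of macrophages and some of neutrophils were higher in the same array as Plaur. At 3 months the double mutant had all 18 markers of macrophages and monocytes above mdx (median log2 difference 0.65). Of these, 3 were past 2-fold, Ccr2, Msr1 and Fcer1g, where 1.18% of all genes were past it upward. At 1 month 6 of 18 were higher (median -0.09). Their summed scaled signal was 13828 in mdx and 12667 in the double mutant at 1 month, and 10105 and 15175 at 3 months. None of the 18 was at the floor in all arrays. Of the neutrophil markers, 4 of 6 were higher at 3 months, all past 2-fold (against the same 1.18% of all genes): S100a8, S100a9, Ngp and Csf3r. Mpo was lower (11.8, under the floor, against 23.8 in mdx) and Camp was under the floor in both 3-month arrays. The summed signal of the 6 was 112 in mdx and 674 in the double mutant at 3 months, against 180 and 202 at 1 month. S100a8 (343) and S100a9 (216) held most of that 674. Csf3r was under the floor in mdx at 3 months (9.52), so its fold is a lower bound. Elane, Ltf and Cxcr2, which define neutrophils too, were at the floor in all arrays. In 3 of 4 arrays Plaur was at 34.6 to 38.5, while the macrophage sum ranged from 10105 to 13828 over the same arrays. Other lists also leaned above mdx in the double mutant at 3 months, with smaller medians. They were fibroblast (12 of 13 higher, median 0.14), satellite cell (7 of 9, 0.17), Schwann cell (7 of 8, 0.11) and adipocyte markers (4 of 6, 0.19). Endothelial markers were lower in 11 of 14 cases (-0.20), muscle fibre in 8 of 14 (-0.02) and pericyte and smooth muscle in 6 of 10 (-0.03). Tendon and cartilage markers had 4 higher and 4 lower. The part of leukocyte or other cell content in the values of Plaur, Itgb2, Anxa2, S100a10 and the serpins was not tested. The directions of the macrophage list and of the partner list at 3 months held under the 4 other treatments of scaling, with medians above that of all genes by 0.61 to 0.64 and by 0.17 to 0.23.

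**Figure D3:**
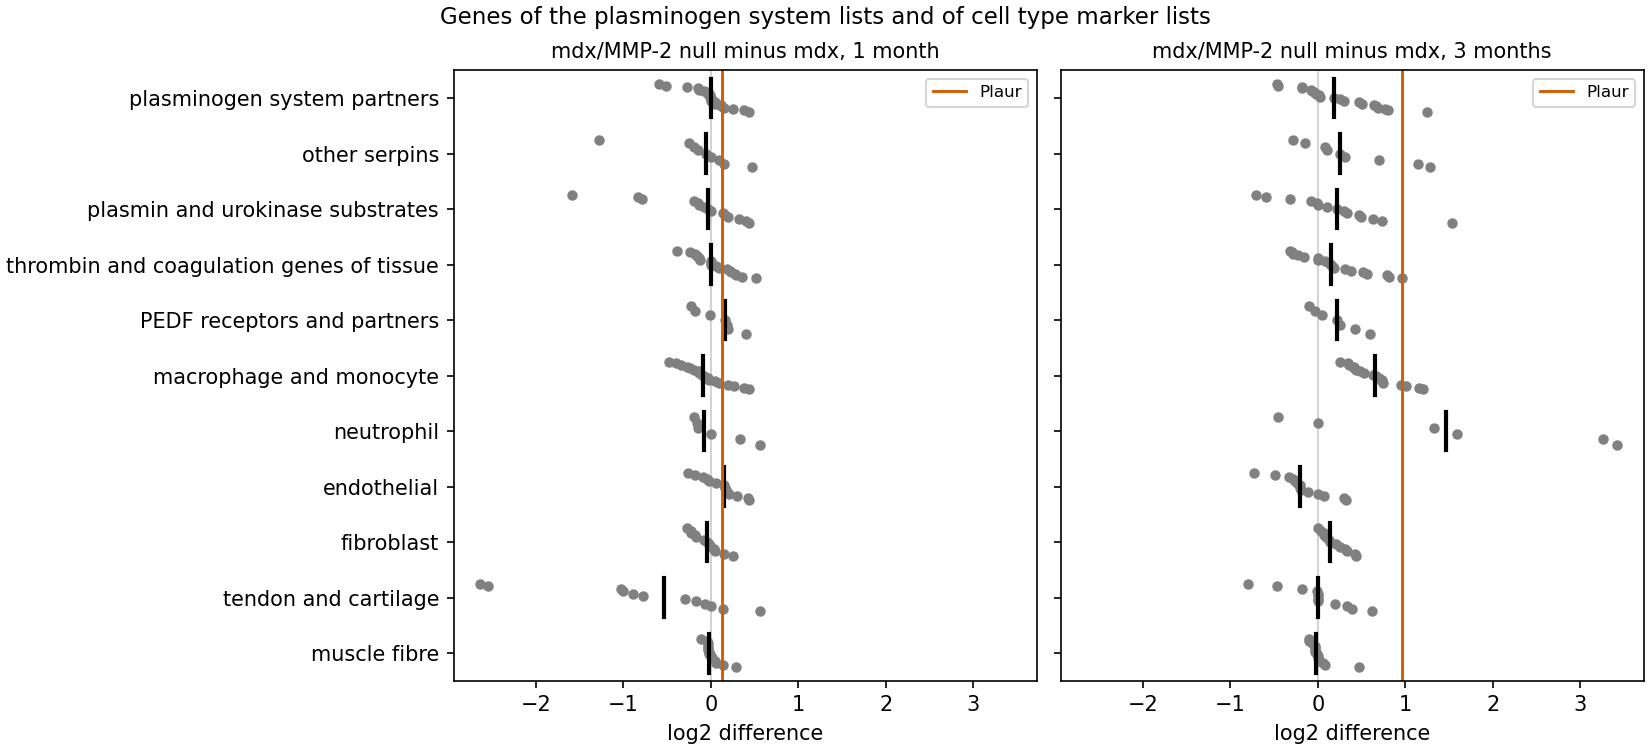
Log2 differences between mdx/MMP-2 null and mdx at 1 month and at 3 months for the measured genes of 5 lists of the plasminogen system and 6 lists of cell type markers, each grey point 1 gene, each black bar the median of its list and the orange line Plaur. At 3 months all 18 macrophage and monocyte points lie right of 0 around a median of 0.65, and at 1 month the list medians lie between -0.09 and 0.16 except that of tendon and cartilage, at -0.54. The row of plasmin and urokinase substrates still holds Plxdc2, with 15 points and a median of 0.22 at 3 months.

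**Figure D4:**
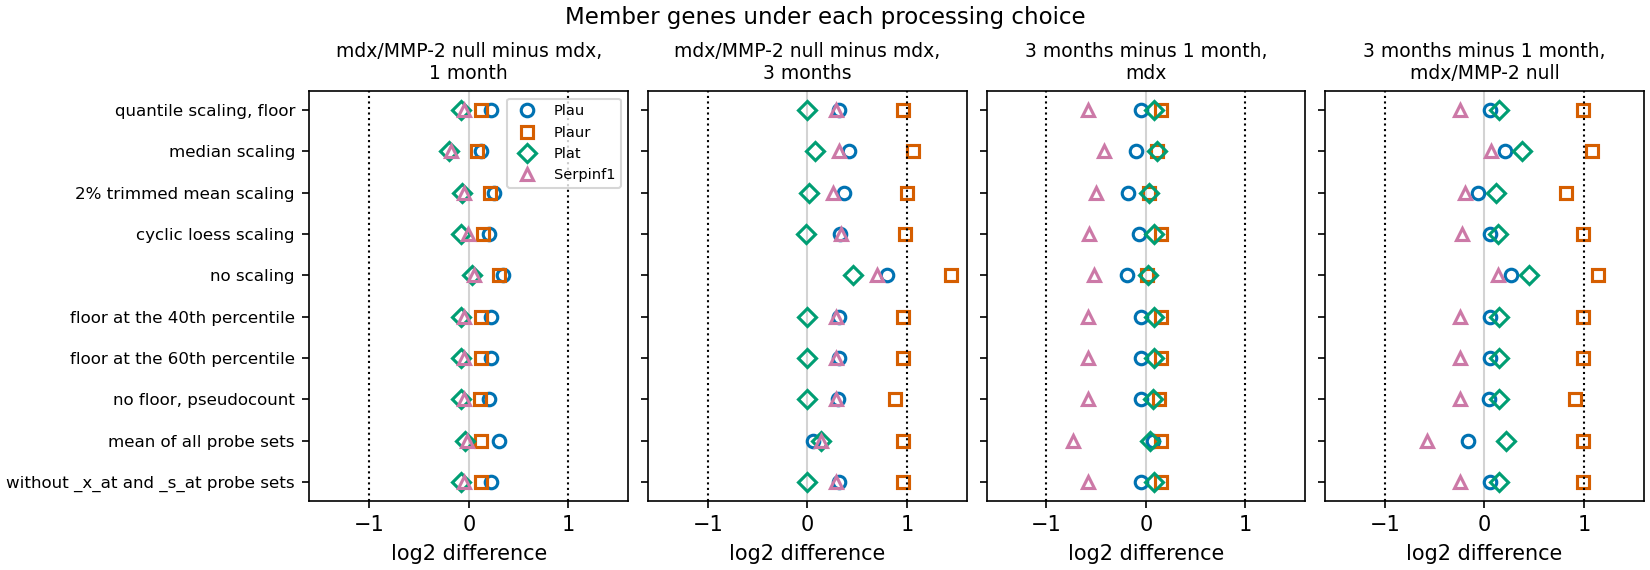
Log2 difference of the 4 member genes in the 4 comparisons under each processing choice, with open symbols by gene and dotted lines at 2-fold. Plaur lies between 0.88 and 1.44 between genotypes at 3 months, crossing 2-fold under some scalings, and the other member genes stay within 2-fold under every choice shown.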

How the data were processed

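The authors deposited linear MAS5 signals, an intensity per probe set. The submitters' processing notes name MAS5 and Affymetrix Expression Console. Their versions and scaling settings are not given in the sources used here. Per the labels' protocols, total RNA was isolated with the RNeasy mini kit and labelled with biotin after amplification. The genome build is not given in the sources used here.

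Of 45101 probe sets, 64 controls were left out. The other 45037 were brought to a common distribution by quantile normalization (limma 3.58.1, R 4.3.3), raised to a floor of 17.4 (their 50th percentile) and put on the log2 scale. Symbols came from the platform annotation: 34945 probe sets had 1 gene, 932 several and 9160 none here; 34741 of the 34945 were found by gene ID in a mouse RefSeq table, and 0 symbols differed. Each gene was represented by the probe set of highest mean log2 signal among those naming it alone, and 12801 of 18193 genes exceeded the floor in at least 1 array. Where 1 array lay at the floor, the fold is a lower bound. Differences between single arrays have no test; genes at or past 2-fold were counted. The additive limma fit used Benjamini-Hochberg adjustment over 12801 genes. Promoter windows were read in Python 3.11.15 with pandas 2.3.3.

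Named genes were the members, Mmp2, Plg and Serpinf2, up to 4 genes per pathway list and comparison with the largest difference among those whose higher signal reached 85.4 (the 75th percentile), and the 3 nearest patterns per member. Any other gene was named with its values already known. The members, gene lists and tests were chosen with earlier results of these data known. Alternatives were median, 2% trimmed mean, cyclic loess and no scaling, a floor at the 40th or 60th percentile, a pseudocount of 4.36 in place of the floor, averaging a gene's probe sets, omitting _x_at and _s_at probe sets, a 1.5-fold threshold and a prior variance that follows signal.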

Additional observations from a re-analysis of the deposited data

Results flagged for a closer look

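Some differences lay on opposite sides in the groups compared; none could be tested with 1 array a group. Serpinf1 had a log2 difference between genotypes (mdx/MMP-2 null minus mdx) of -0.05 at 1 month and 0.29 at 3 months, a gap of 0.34. Plau had a log2 difference between ages (3 months minus 1 month) of -0.05 in mdx and 0.05 in the double mutant (mdx/MMP-2 null), a gap of 0.10. Of the pathway genes, those with at least 1.5-fold on each side were Serpina3n, with log2 differences between genotypes of -1.28 at 1 month and 1.28 at 3 months (gap 2.55), and Tgfb1, with -0.78 and 0.63 (gap 1.42). By age, Tgfb1 had -0.68 in mdx and 0.74 in the double mutant (gap 1.42) and Serpinb1a -0.62 and 0.72 (gap 1.34).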

How the results depend on the processing

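The number of member genes past 2-fold, 0 in each comparison, became 1 (Plaur) between genotypes at 3 months with median scaling (log2 1.06), 2% trimmed mean scaling (1.0) and no scaling (1.44), and between ages in mdx/MMP-2 null with median scaling (1.08) and no scaling (1.14). A 1.5-fold threshold likewise gave 1 in each of these comparisons. Other member values kept their side of 2-fold under all 9 alternatives; signs of differences under 1.25-fold turned under some of them for Plau, Plat and Serpinf1. Genes past 2-fold between genotypes at 1 and 3 months and between ages in mdx and mdx/MMP-2 null numbered 147, 205, 323 and 344 in the main analysis. They numbered 320, 432, 583 and 560 with a floor at the 40th percentile, 59, 90, 190 and 211 at the 60th, 1327, 1501, 1692 and 1543 with no floor, 66, 109, 184 and 191 with the mean of all probe sets and 906, 1209, 1695 and 1806 at 1.5-fold. With no scaling the counts between genotypes at 3 months and between ages in mdx/MMP-2 null were 868 (855 higher, 13 lower) and 558 (466 higher, 92 lower), against 151 higher and 54 lower and 188 higher and 156 lower in the main analysis. Scaling moved the split in the other cases too: in the double mutant by age it was 350 higher and 106 lower with median scaling and 126 and 258 with 2% trimmed mean scaling, and between genotypes at 3 months 216 and 39 with median scaling. Between genotypes at 1 month the split was 73 and 74, against 131 and 35 with no scaling and 109 and 60 with trimmed mean scaling; between ages in mdx it was 125 and 198, against 67 and 253 and 84 and 266. In the additive limma fit, genes called for genotype went from 0 to 1 with median scaling, cyclic loess scaling, the floor at the 60th percentile and the prior variance that follows signal, and to 21 with no scaling. Genes called for age went from 0 to 11 with median scaling, 79 with no scaling, 1 with the floor at the 60th percentile and 130 with the prior variance that follows signal. The cause of these shifts was not tested. No member was called under any of them. No paired analysis was possible because each group has 1 array and the groups share no replicate number; the additive fit blocks genotype by age and age by genotype. The number of arrays limits the precision, and the dim probe sets of Plau and Plat lay at or under the floor in 2 and 3 of 4 arrays.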
